A study of Homo sapiens with 12 samples.

Results

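ATF4 and 8 genes that act with it in the integrated stress response were followed by RNA-seq in 2 prostate cancer cell lines treated with pentamidine. The genes were taken by name from the count table, and all 9 were found among its 32077 genes: ATF4, ATF5, CEBPB, CEBPG, DDIT3, ATF3, JDP2, TRIB3 and NUPR1. PC3 and DU145 are established human lines, grown from metastases of prostate cancers, that proliferate without androgen, and pentamidine is an aromatic diamidine used against protozoal infections. Wild type cells of each line (1000000 per well of a 6-well plate) were kept for 48 hours with 2.5 μmol/L pentamidine or with its vehicle, sterile distilled water, and no genetic change was made in any group. There were 4 groups of 3 samples, 12 samples in all: PC3 with vehicle, PC3 with pentamidine, DU145 with vehicle and DU145 with pentamidine. RNA was enriched with Oligo(dT) beads, so the values are of mRNA and not of protein. The labels do not say whether samples of a group came from separate cultures, so the p-values measure the spread between these samples, which may be technical. In bulk RNA a change in level per cell and a change in the share of cells that hold the transcript cannot be told apart.

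In the integrated stress response, kinases that sense amino acid shortage, misfolded protein in the endoplasmic reticulum, double-stranded RNA, haem shortage or mitochondrial damage phosphorylate the translation factor eIF2α. Most protein synthesis then slows, while mRNAs with short upstream reading frames, that of ATF4 among them, are translated better. ATF4 is a basic leucine zipper (bZIP) protein that binds DNA as a dimer, mostly with a C/EBP partner, at C/EBP-ATF response elements, and its targets include amino acid enzymes and transporters, further bZIP factors and inhibitors of ATF4 itself.

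Total counts per sample ranged from 13514195 to 15131436. Levels are given as read counts, or as CPM, reads per 1000000 reads of TMM-scaled library size. Marker genes were checked against the cell labels first. KRT8 and KRT18, keratins of glandular epithelium, held 238 to 307 and 2125 to 3085 reads in the libraries labelled PC3 and 25835 to 38812 and 9962 to 13423 in those labelled DU145. The epithelial adhesion genes EPCAM and CDH1 were nearly absent from both lines, with at most 2 and 10 reads in any library. CTNNA1, known to be homozygously deleted in PC3, was counted 6003 to 8545 times in the libraries labelled PC3, against 5533 to 5932 times in those labelled DU145. All 6 libraries labelled PC3 therefore go against the label at this gene, so no result can be given without them, and PC3 and DU145 stand here for the libraries so labelled. Of markers of other cells, PTPRC (immune) had at most 1 read, PECAM1 (endothelial) at most 10 and COL1A1 (fibroblast) 3 to 40 reads in any library. The androgen-axis marker KLK3 had at most 2 reads in any library.

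The promoters of the 9 genes were examined for the elements at which these factors bind. RefSeq (GRCh38.p14) promoter windows, from 250 bases before to 50 bases after a transcription start, were at hand for 8 of the 9 genes, with 19 windows in all, and NUPR1 had none. The following motifs were searched on both strands: the C/EBP-ATF response element core TGATGNAA, the cAMP response element TGACGTCA and the AP-1 element TGANTCA. The first motif was found in windows of 3 of these 8 genes, CEBPG, JDP2 and ATF3. Over all genes it was found in 4.5% of the 27305 genes with windows and in 3.6% of the 35116 windows. Its form TGATGCAA, found in CEBPG and JDP2, occurs in 1.1% of all genes with windows and in 0.9% of all windows. These stretches are shown because they hold the element in genes that are themselves partners or targets of ATF4, with the 8 matching bases in capitals.
CEBPG, chr19:33374041-33374108, plus strand: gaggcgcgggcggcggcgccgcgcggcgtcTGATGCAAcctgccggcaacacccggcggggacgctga
JDP2, chr14:75427976-75428021, plus strand: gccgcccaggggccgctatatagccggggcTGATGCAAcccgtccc
ATF3, chr1:212565186-212565253, plus strand: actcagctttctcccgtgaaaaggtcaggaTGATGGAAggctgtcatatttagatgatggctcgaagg

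The match began 42 bases before the start site in CEBPG, 16 bases before it in JDP2 and 191 bases before it in ATF3. The AP-1 motif was found in windows of DDIT3 and ATF5, and in 9.4% of all genes with windows (7.7% of all windows). It does not overlap the other matches, and its 7 bases are in capitals here.
DDIT3, chr12:57520738-57520764, minus strand: gcgcgcgcaTGACTCAcccacctcctc
ATF5, chr19:49928707-49928735, plus strand: ggagagtgctgTGACTCAtgctggactct

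The cAMP response element, present in 2.2% of all genes with windows (1.8% of all windows), was found in no window of these genes. None of the motifs was found in the windows of ATF4, CEBPB and TRIB3. A match describes letters in the window and was not tested for binding.

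To determine how the 9 mRNAs responded to pentamidine, each line was tested with its own 6 samples by edgeR's quasi-likelihood test, adjusted over all genes tested. A gene is said to rise or fall where the adjusted p was below 0.05, and to be called where the absolute log2 fold change was also above 1. In PC3 all genes but ATF5 rose, by 2.2-fold for ATF4 to 30.7-fold for NUPR1, and 8 of the 9 were called higher, where 3.44% of the 13861 genes tested were. In DU145 the 8 genes tested, ATF5 among them but not NUPR1, all rose, by 1.3-fold for ATF5 to 5.3-fold for ATF3. There 4 of them were called higher (DDIT3, ATF3, JDP2 and TRIB3), where 1.37% of the 14313 genes tested were. On the adjusted p alone, 21.7% of all genes tested were higher and 21.7% lower in PC3, and 17.2% higher and 16.8% lower in DU145. The pentamidine samples lay above all vehicle samples for 8 of the 9 genes in PC3, where this held for 26.1% of the genes tested, and for all 8 genes tested in DU145, where it held for 21.9%. The median log2 fold change of the 9 genes was 2.40 in PC3, and that of the 8 tested genes 1.13 in DU145, beside 0.00 and 0.01 for all genes tested. The 9 genes were chosen with earlier results of these data known, and the paper had already reported DDIT3 and TRIB3 as higher with pentamidine. The shares of all genes are thus a background and no test of the group.

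**Figure D1:**
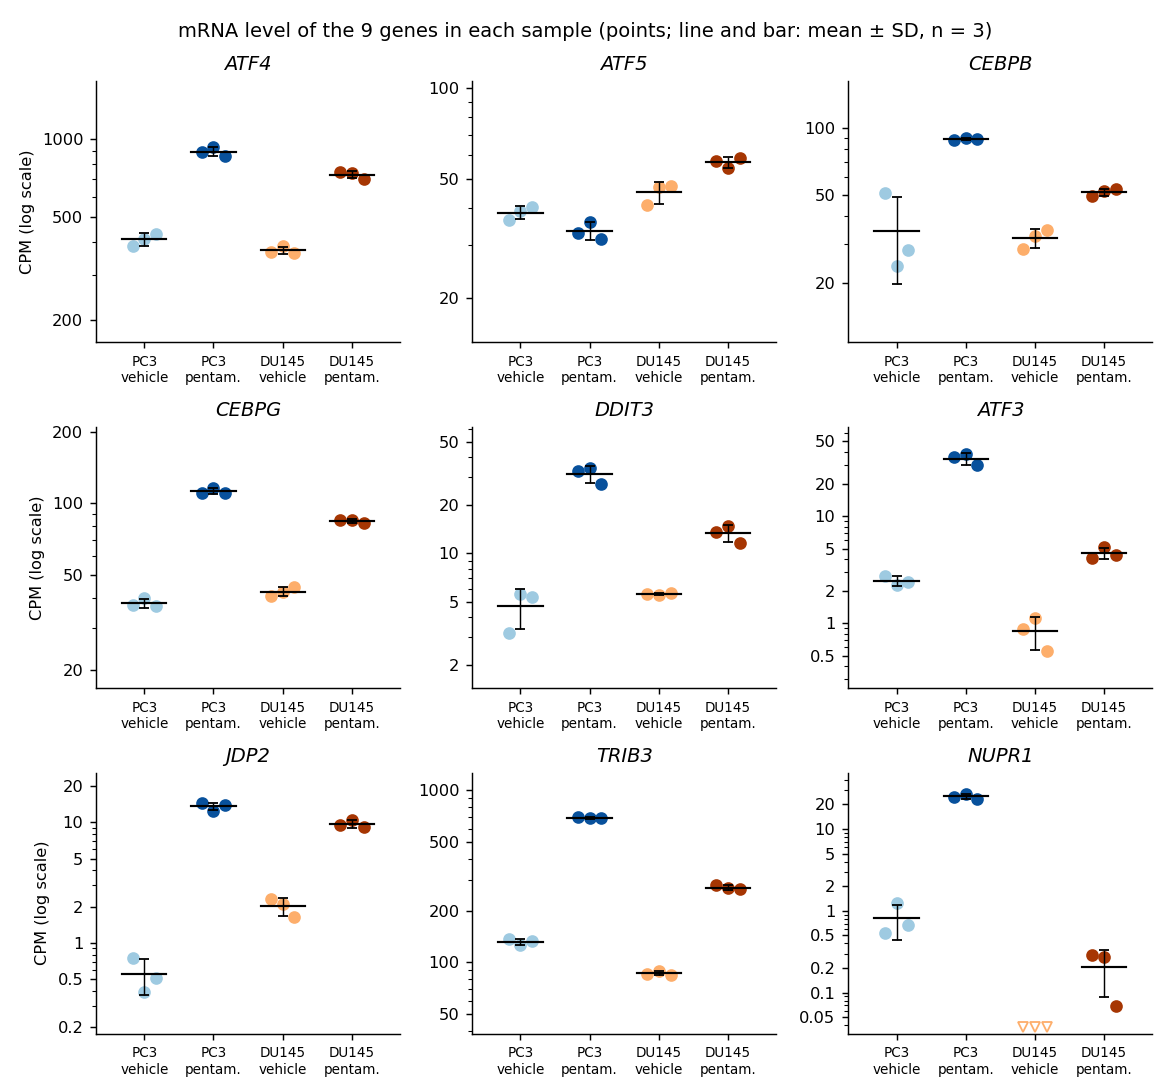
Each panel plots the CPM of 1 gene on a log axis in the 12 samples, grouped by line and treatment, with 3 points per group, a line at the mean and a bar of 1 SD. Open triangles at the foot of the NUPR1 panel mark the 3 DU145 vehicle samples with 0 reads; ATF5 is the panel in which the PC3 pentamidine samples lie below the vehicle samples.

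ATF4 (ENSG00000128272), the activator at the centre of the response, lies on the plus strand of chromosome 22 (chr22:39519695-39522685, GRCh38). It was counted 5717, 6385 and 5863 times in the PC3 vehicle samples and 13261, 13070 and 12758 times with pentamidine. Its mean level was 411 ± 22.4 CPM with vehicle and 895 ± 34.0 CPM with the drug (SD, n = 3), and the log2 fold change was 1.13 ± 0.05 (SE, adjusted p = 2.32e-11). In DU145 the counts were 4937, 5505 and 5275 with vehicle and 10421, 10852 and 10107 with pentamidine. The level there went from 372 ± 11.8 to 727 ± 22.5 CPM, a log2 fold change of 0.97 ± 0.03 (adjusted p = 1.11e-31). The groups did not overlap in either line, and the DU145 change passed the test while lying just under the fold needed for a call. With scaling by library size alone it was 1.02 and would be called. Of the ATF4 pseudogenes in the table, ATF4P1, ATF4P3 and ATF4P4 held 1, 64 and 4 reads over the 12 samples.

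ATF5 (ENSG00000169136, chr19:49928702-49933935, plus strand), a relative of ATF4 whose translation is likewise favoured by eIF2α phosphorylation and which is linked to the mitochondrial stress response, moved little. Its counts in PC3 were 538, 603 and 545 with vehicle and 489, 506 and 466 with pentamidine. The log2 fold change was -0.20 ± 0.08 (adjusted p = 0.0447), and the lowest vehicle sample (36.4 CPM) lay close above the highest pentamidine sample (36.0 CPM). This fall failed the threshold under 7 of 15 alternative settings, over which the adjusted p ranged from 0.0119 to 0.179, among them the fits without PC3 vehicle replicate 2 or 3 and without PC3 pentamidine replicate 1 or 3. The DU145 counts were 547, 672 and 687 with vehicle and 800, 799 and 846 with pentamidine, a log2 fold change of 0.34 ± 0.06 (adjusted p = 9.40e-06). ATF5 shares 626 exonic bases with NUP62, a nuclear pore gene on the opposite strand. No source states a step that marks strand or a strand setting of the counting, so reads of both genes may be mixed there. For NUP62 the log2 fold change was -0.31 in PC3 and -0.07 (adjusted p = 0.164) in DU145.

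Of the C/EBP partners, CEBPG (ENSG00000153879, chr19:33373330-33382686, plus strand), a short C/EBP protein that dimerises with ATF4, was counted 554, 619 and 501 times in the PC3 vehicle samples and 1641, 1639 and 1638 times with pentamidine. That is 38.2 ± 1.67 against 113 ± 3.39 CPM, with a log2 fold change of 1.56 ± 0.06 (adjusted p = 1.63e-12). The DU145 counts were 550, 604 and 647 with vehicle and 1189, 1260 and 1191 with pentamidine. This is a log2 fold change of 0.99 ± 0.05 (adjusted p = 2.56e-22), again just under the fold for a call. It was 1.04 with scaling by library size alone and 1.02 without DU145 vehicle replicate 3, and was called in both. The element printed above for CEBPG is the same TGATGCAA as in JDP2.

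CEBPB (ENSG00000172216, chr20:50190734-50192689, plus strand), a C/EBP activator of inflammatory and metabolic genes, had 1 high vehicle library in PC3. Its vehicle counts there were 749, 370 and 384, so that replicate 1 stood well above the other two, while the pentamidine samples held 1300, 1266 and 1320 reads. The log2 fold change was 1.38 ± 0.16 (adjusted p = 3.01e-06), and 1.77 without vehicle replicate 1. DU145 had 383, 467 and 504 reads with vehicle and 691, 763 and 763 with pentamidine, a log2 fold change of 0.69 ± 0.07 (adjusted p = 1.32e-12). All pentamidine samples exceeded all vehicle samples in both lines, PC3 vehicle replicate 1 included. CEBPB shares 231 exonic bases with the antisense transcript CEBPB-AS1, which held 126 reads over the 12 samples.

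DDIT3 (ENSG00000175197, chr12:57516588-57520517, minus strand) encodes CHOP, a C/EBP-type partner that is a target of ATF4 and promotes cell death under lasting stress. PC3 had 47, 86 and 73 reads with vehicle and 488, 483 and 403 with pentamidine. The level went from 4.71 ± 1.32 to 31.5 ± 3.78 CPM, a log2 fold change of 2.74 ± 0.15 (adjusted p = 2.39e-10). DU145 started from a like level, with 75, 79 and 82 reads, and reached 192, 220 and 168 reads. Its log2 fold change was 1.27 ± 0.13 (adjusted p = 1.58e-11). DDIT3 shares 355 exonic bases with MARS, the methionyl-tRNA synthetase gene on the opposite strand, which held 85796 reads over all samples against 2396 for DDIT3. MARS itself had log2 fold changes of 1.10 in PC3 and 0.99 in DU145, and its part in the DDIT3 counts was not tested.

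ATF3 (ENSG00000162772, chr1:212565334-212620777, plus strand), a stress-induced bZIP factor that often represses as a homodimer, was scarce in vehicle samples. PC3 had 41, 35 and 33 reads with vehicle and 531, 535 and 442 with pentamidine, a log2 fold change of 3.79 ± 0.14 (adjusted p = 5.67e-13). DU145 had 12, 16 and 8 reads with vehicle and 57, 76 and 63 with pentamidine, a log2 fold change of 2.41 ± 0.27 (adjusted p = 2.24e-10). Every PC3 vehicle sample lay above every DU145 vehicle sample. The DU145 pentamidine samples came to 4.53 ± 0.56 CPM, beside 2.49 ± 0.26 CPM in untreated PC3.

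JDP2 (ENSG00000140044, chr14:75427716-75474111, plus strand), a repressor that dimerises with JUN and ATF proteins, began from the opposite order. It was counted 11, 6 and 7 times in PC3 and 31, 30 and 24 times in DU145 with vehicle. With pentamidine the counts were 213, 175 and 207 in PC3 and 132, 155 and 131 in DU145. The log2 fold changes were 4.62 ± 0.21 (adjusted p = 1.69e-11) and 2.27 ± 0.18 (adjusted p = 1.92e-15). PC3 samples thus lay below all DU145 samples with vehicle and above all of them with pentamidine. The few reads in vehicle PC3 leave the fold the least certain of those in PC3 (SE 0.21). JDP2 shares 26 exonic bases with the antisense transcript AF111167.2, which held 67 reads over the 12 samples.

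The remaining pair are cofactors without a bZIP domain. TRIB3 (ENSG00000101255, chr20:362835-397559, plus strand), a pseudokinase induced by ATF4 and CHOP that binds ATF4 and restrains it, had the smallest standard error of the 9 genes in PC3. The PC3 counts were 2009, 1952 and 1811 with vehicle and 10456, 9711 and 10223 with pentamidine, a log2 fold change of 2.40 ± 0.05 (adjusted p = 1.68e-16). DU145 had 1151, 1275 and 1232 reads with vehicle and 3941, 3974 and 3849 with pentamidine, a log2 fold change of 1.66 ± 0.04 (adjusted p = 1.06e-38).

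NUPR1 (ENSG00000176046, chr16:28532708-28539174, minus strand), a small stress-induced chromatin protein that works with ATF4, was scarce in DU145. Its counts in PC3 were 8, 19 and 9 with vehicle and 365, 381 and 342 with pentamidine, a log2 fold change of 4.91 ± 0.19 (adjusted p = 1.35e-12). All 3 DU145 vehicle samples had 0 reads, which allows up to 3 reads per library, and the pentamidine samples had 4, 4 and 1. The gene was below the filter in DU145 and no fold is given there. Relative to a floor of 3 reads per DU145 library (0.213 CPM), NUPR1 was at least 3.80-fold higher in vehicle PC3 than in vehicle DU145. These limits cover counting error only.

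**Figure D2:**
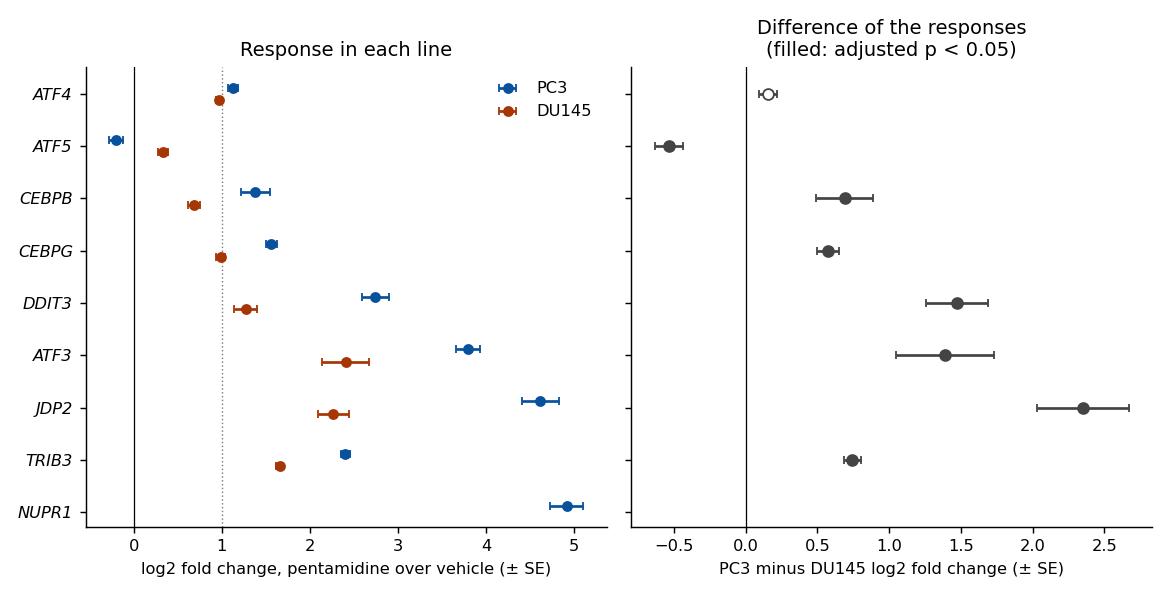
The left panel plots the log2 fold change of pentamidine over vehicle (points, with bars of 1 SE) for each gene in PC3 and DU145, with a dotted line at the fold needed for a call; NUPR1 has no DU145 point. The right panel plots the PC3 response minus the DU145 response, with filled points where the adjusted p of the difference was below 0.05; ATF4 has the open point at 0.16, and ATF5 lies below 0.

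The responses of both lines were then set against each other with an interaction term over all 12 samples. JDP2, DDIT3, ATF3, TRIB3, CEBPB and CEBPG responded more in PC3 and ATF5 responded less, while the ATF4 response itself was not shown to differ. The difference (PC3 minus DU145, log2) was largest for JDP2 at 2.35 ± 0.32 (SE, adjusted p = 2.96e-06). DDIT3 differed by 1.47 ± 0.22 (adjusted p = 9.06e-06) and ATF3 by 1.39 ± 0.34 (adjusted p = 0.00389). TRIB3 differed by 0.74 ± 0.06 (adjusted p = 3.39e-10), CEBPB by 0.69 ± 0.20 (adjusted p = 0.0137) and CEBPG by 0.57 ± 0.08 (adjusted p = 2.63e-06). For ATF5 it was -0.54 ± 0.10 (adjusted p = 0.000217), with opposite directions in the lines. That of ATF4 was 0.16 ± 0.06 (adjusted p = 0.0716). Of the 15226 genes tested, 10.2% responded more positively and 10.3% less positively in PC3. NUPR1 is left out because the DU145 vehicle samples were at 0. The ATF3 difference failed the threshold without DU145 vehicle replicate 2 (1.15, adjusted p = 0.0583), the CEBPB difference with DESeq2 (adjusted p = 0.150), and the ATF4 difference passed under 4 of 20 alternatives, over which its adjusted p ranged from 0.0142 to 0.321 (those without PC3 vehicle replicate 3 or PC3 pentamidine replicate 3, with RLE scaling and with no filter). Scaling by library size alone moved the share of higher genes among those passing the adjusted p from 49.7% to 33.3% for this difference, and from 50.6% to 66.6% for the DU145 response.

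Without drug, 6 of the 8 genes tested passed the adjusted p between the lines, a share near that of all genes tested, given below. Of the genes tested, ATF3 and JDP2 alone had a log2 difference above 1 in size, and NUPR1 was not tested here. Vehicle PC3 exceeded vehicle DU145 by 1.51 ± 0.30 on the log2 scale for ATF3 (adjusted p = 0.000336) and by 0.58 ± 0.05 for TRIB3 (adjusted p = 4.69e-08), and JDP2 fell short by -1.89 ± 0.34 (adjusted p = 0.000132). ATF5 was lower in PC3 at -0.25 (adjusted p = 0.00810). For ATF4 the difference was 0.12 (adjusted p = 0.0491) and for CEBPG -0.18 (adjusted p = 0.0282), and each of these failed the threshold under 7 of 15 alternatives, with adjusted p ranges of 0.00109 to 0.180 and 0.0199 to 0.210. For ATF4 these included the fits without PC3 vehicle replicate 2 or 3 or any 1 DU145 vehicle sample, and for CEBPG those without PC3 vehicle replicate 1 or 3 or DU145 vehicle replicate 2 or 3. DDIT3 (-0.27, adjusted p = 0.242) and CEBPB (0.07, adjusted p = 0.743) did not pass, and their samples overlapped. CEBPB was lower in PC3 (-0.31, adjusted p = 0.00284) without PC3 vehicle replicate 1. In this comparison 31.5% of the 14394 genes tested were higher and 33.8% lower in PC3. It uses the same vehicle samples as the pentamidine responses, so the values of both are not independent.

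Levels were compared between genes as CPM per kilobase of exon, from the union of exons in GENCODE release 29. For DDIT3 that release ends the gene at 57521737, beyond the deposited end of 57520517. The length used for DDIT3 may thus be too long, and its levels per kilobase too low. ATF4 was the most abundant and TRIB3 the next in all 4 groups. In vehicle PC3 the levels per kilobase were 163 ± 8.91 for ATF4, 38.4 ± 1.47 for TRIB3, 17.5 ± 7.35 for CEBPB, 13.0 ± 0.64 for ATF5, 8.65 ± 0.38 for CEBPG and 3.60 ± 1.01 for DDIT3, with ATF3 (0.617 ± 0.065), NUPR1 (0.143 ± 0.065) and JDP2 (0.0881 ± 0.029) far below. The ranges of CEBPB and ATF5 overlapped, as did those of NUPR1 and JDP2. With pentamidine PC3 reached 356 ± 13.5 for ATF4, 202 ± 2.58 for TRIB3, 45.5 ± 0.59 for CEBPB, 25.5 ± 0.77 for CEBPG and 24.1 ± 2.89 for DDIT3, and the ranges of CEBPG and DDIT3 overlapped. ATF5 stood at 11.3 ± 0.78 and was passed by both, ahead of ATF3 (8.55 ± 1.05), NUPR1 (4.39 ± 0.36) and JDP2 (2.18 ± 0.16). 

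Vehicle DU145 held 148 ± 4.71 per kilobase for ATF4, 25.2 ± 0.69 for TRIB3, 16.3 ± 1.60 for CEBPB, 15.2 ± 1.25 for ATF5, 9.65 ± 0.40 for CEBPG, 4.27 ± 0.04 for DDIT3, 0.324 ± 0.054 for JDP2 and 0.212 ± 0.071 for ATF3. CEBPB overlapped with ATF5, and JDP2 with ATF3. Pentamidine left this order as it was, at 289 ± 8.95 for ATF4, 79.4 ± 2.21 for TRIB3, 26.3 ± 0.95 for CEBPB, 19.2 ± 0.78 for ATF5, 19.1 ± 0.33 for CEBPG, 10.3 ± 1.26 for DDIT3, 1.55 ± 0.12 for JDP2 and 1.12 ± 0.14 for ATF3. Here ATF5 and CEBPG overlapped. With the length of the principal transcript in place of the exon union, ATF5 stood above CEBPB in both vehicle groups and in treated DU145, DDIT3 above CEBPG and ATF3 above ATF5 in treated PC3, and ATF3 above JDP2 in both DU145 groups.

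The composition of the group shifted with treatment in PC3. ATF4 made up 66.6% of the summed level per kilobase of the 9 genes in vehicle PC3 and 52.4% in treated PC3, while TRIB3 went from 15.6% to 29.8%. In DU145 ATF4 went from 67.5% to 64.8% and TRIB3 from 11.5% to 17.8%. The ratio of TRIB3 to ATF4 per kilobase was 0.236 ± 0.019 in vehicle and 0.569 ± 0.022 in treated PC3, and 0.170 ± 0.00075 and 0.275 ± 0.0057 in DU145. The ratio of DDIT3 to ATF4 was 0.0219 ± 0.0054 and 0.0675 ± 0.0059 in PC3, against 0.0289 ± 0.0012 and 0.0355 ± 0.0035 in DU145. In neither line did vehicle and pentamidine samples overlap in these ratios. Like its levels, the ratio of DDIT3 may be too low, by the same factor in all groups. The ratio of CEBPG to ATF4 was 0.0531 ± 0.0038 and 0.0717 ± 0.0013 in PC3, without overlap, whereas in DU145 it was 0.0653 ± 0.0040 and 0.0661 ± 0.0011, with overlap.

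**Figure D3:**
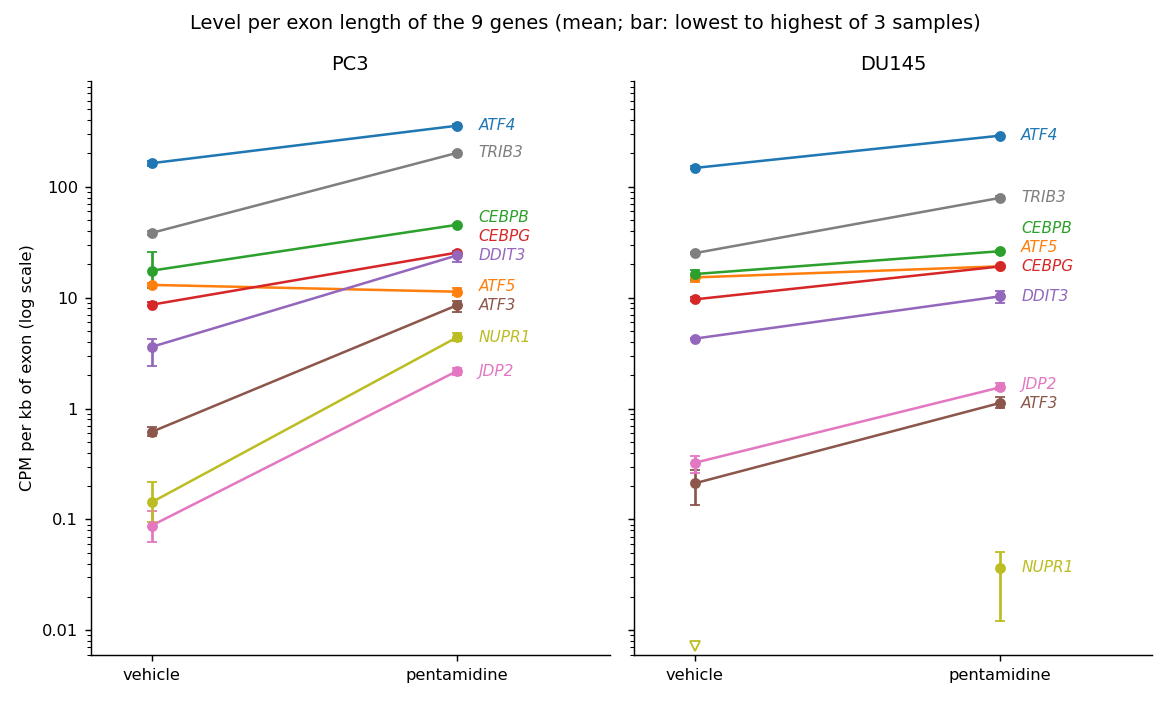
Mean level in CPM per kilobase of exon (log axis) of each gene with vehicle and with pentamidine, PC3 on the left and DU145 on the right, with bars from the lowest to the highest of 3 samples. The lines of DDIT3 and CEBPG cross that of ATF5 in PC3, and the open triangle marks NUPR1 at 0 in vehicle DU145.

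The genes whose course over the 12 samples was most like ATF4, DDIT3 and TRIB3 were sought among the 13125 genes tested in both lines. Likeness was the mean absolute difference of log2(CPM + 1), each sample taken relative to the vehicle mean of its line. Nearest to ATF4 were MARS (0.03), PSPH (0.07), PDCD4 (0.07), LURAP1L (0.08) and EIF4EBP1 (0.08). PSPH makes serine in its last step and EIF4EBP1 is an inhibitor of cap-dependent translation. Nearest to DDIT3 were RAB39B (0.16), KLF4 (0.17), MT-RNR2 (0.17), SEL1L3 (0.23) and AL590617.2 (0.24), and nearest to TRIB3 were MT-RNR2 (0.11), PSAT1 (0.11), RAB39B (0.16), EPAS1 (0.17) and ULBP1 (0.18). The authors found that MT-RNR2, a mitochondria-encoded gene, rose in this RNA-seq but fell by qPCR, and presumed sequencing errors. On the log2(CPM + 1) scale SEL1L3 and AL590617.2 each shifted by 2.50 in PC3, less than their log2 fold changes of 3.45 and 3.79. The log2 fold changes of RAB39B, a small GTPase, were 2.72 in PC3 and 1.55 in DU145, and those of PSAT1, an aminotransferase of serine synthesis, 2.16 and 1.53.

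Most genes listed as targets of ATF4 or CHOP rose in both lines. The list was chosen with earlier results of these data known, so the counts below are a description and not a test. Of 39 listed targets 38 were tested in PC3, where 35 rose and 2 fell, with 25 called higher and a median log2 fold change of 1.53. In DU145 37 were tested, where 32 rose and 3 fell, with 17 called higher and a median of 0.94. Among all genes tested, 21.7% rose and 3.44% were called higher in PC3 (median 0.00). For DU145 these shares were 17.2% and 1.37% (median 0.01). INHBE, an activin subunit, was counted 1, 0 and 0 times in vehicle PC3, too few for a fold, and 24, 18 and 22 times with pentamidine, and had at most 3 reads in any DU145 sample. DDIT4, an inhibitor of mTORC1, went from 99, 108 and 117 reads to 4317, 4235 and 4204 in PC3 (log2 fold change 5.30 ± 0.08) and from 424, 370 and 409 to 1778, 1678 and 1621 in DU145 (2.05 ± 0.06). ADM2, a peptide hormone, rose by 4.65 ± 0.15 in PC3 and 2.50 ± 0.12 in DU145, and SESN2, a leucine sensor upstream of mTORC1, by 4.16 ± 0.07 and 2.33 ± 0.06. The genes that fell in both lines were ALDH18A1 (-0.29 and -0.25), a proline synthesis enzyme, and ERO1A (-0.42 and -0.11), an oxidase of the endoplasmic reticulum, and were named after their values were seen. TNFRSF10B, a death receptor named likewise, rose in PC3 (0.64) and fell in DU145 (-0.44). By the interaction term, the log2 fold change was higher in PC3 for 27 of the 38 targets tested and lower for 2, and 9 did not pass. ERO1A, 1 of these 2, fell further in PC3.

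The genes for sensors and phosphatase subunits of the integrated stress response had small changes in mRNA, apart from PPP1R15A in PC3. Among 10 sensors and phosphatase subunits, 3 rose and 4 fell in PC3 (median -0.10), and 2 rose and 3 fell in DU145 (median 0.01). PPP1R15A (GADD34), the stress-induced subunit that directs a phosphatase to eIF2α, went from 427, 396 and 416 reads to 1231, 1279 and 1203 in PC3, a log2 fold change of 1.59 ± 0.08. In DU145 its counts were 590, 664 and 671 with vehicle and 676, 730 and 641 with pentamidine, with a log2 fold change of 0.06 ± 0.06 (adjusted p = 0.444). The difference between the lines was 1.53 (adjusted p = 2.56e-12). Of the eIF2α kinases, EIF2AK3 (PERK) changed by -0.46 on the log2 scale in PC3 and had -0.22 (adjusted p = 0.156) in DU145, and EIF2AK2 (PKR) fell by 0.36 and 0.12. EIF2AK1 (HRI), the haem-regulated kinase, had -0.16 in PC3 and 0.06 (adjusted p = 0.204) in DU145, and EIF2AK4 (GCN2), the amino acid sensor, -0.03 (adjusted p = 0.626) and -0.14. GCN1, a coactivator of GCN2, fell by 0.21 and 0.08 on the log2 scale, and IMPACT, an inhibitor of GCN2, rose by 0.41 and 0.19. KIAA0141 (DELE1), which relays mitochondrial stress to HRI, rose by 0.21 and 0.14. OMA1, the protease that cleaves DELE1, had -0.17 (adjusted p = 0.182) and -0.03 (adjusted p = 0.858), and the constitutive phosphatase subunit PPP1R15B 0.07 (adjusted p = 0.326) and 0.12 (adjusted p = 0.0605). With scaling by library size alone, 4 of these 10 genes rose and 0 fell in DU145.

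The other bZIP genes did not move as a block. Of 43 in the table, 35 were tested in PC3, where 16 rose and 3 fell (median 0.16), and 37 in DU145, where 11 rose and 8 fell (median -0.01). NFIL3, a bZIP repressor, rose by 1.68 ± 0.10 in PC3 and 0.40 ± 0.12 in DU145, and XBP1, the factor spliced by IRE1, by 1.42 ± 0.06 and 0.21 ± 0.05. MAFF, a small MAF protein, fell in DU145 (-1.08 ± 0.09) and had 0.21 (adjusted p = 0.0707) in PC3. CEBPA, a C/EBP activator, was scarce, with 10, 8 and 14 reads in vehicle and 16, 34 and 18 in treated DU145 (1.05 ± 0.37, adjusted p = 0.0217). Of the TRIB3 relatives, TRIB1 rose in PC3 (0.68 ± 0.14) and had -0.21 (adjusted p = 0.185) in DU145, while TRIB2 was tested in DU145 alone (0.54, adjusted p = 0.137). 

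Genes driven by ATF6 and XBP1, the other arms of the unfolded protein response, mostly fell, chaperones and folding enzymes among them. Of 14 genes, 2 rose and 9 fell in PC3 (median -0.36), and 0 rose and 11 fell in DU145 (median -0.30). SDF2L1, an endoplasmic reticulum folding factor, went from 1127, 1148 and 1152 reads to 509, 462 and 501 in PC3, a log2 fold change of -1.22 ± 0.07, and had -0.48 ± 0.05 in DU145. MANF, a secreted stress protein, had -0.97 and -0.40, CALR (calreticulin) -0.87 and -0.26, and PDIA4, a disulphide isomerase, -0.82 and -0.34. The genes that rose in PC3 were HSPA5 (BiP, 0.54) and HYOU1 (0.32), both chaperones, and each fell in DU145 (-0.44 and -0.22), these being named after their values were seen.

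**Figure D4:**
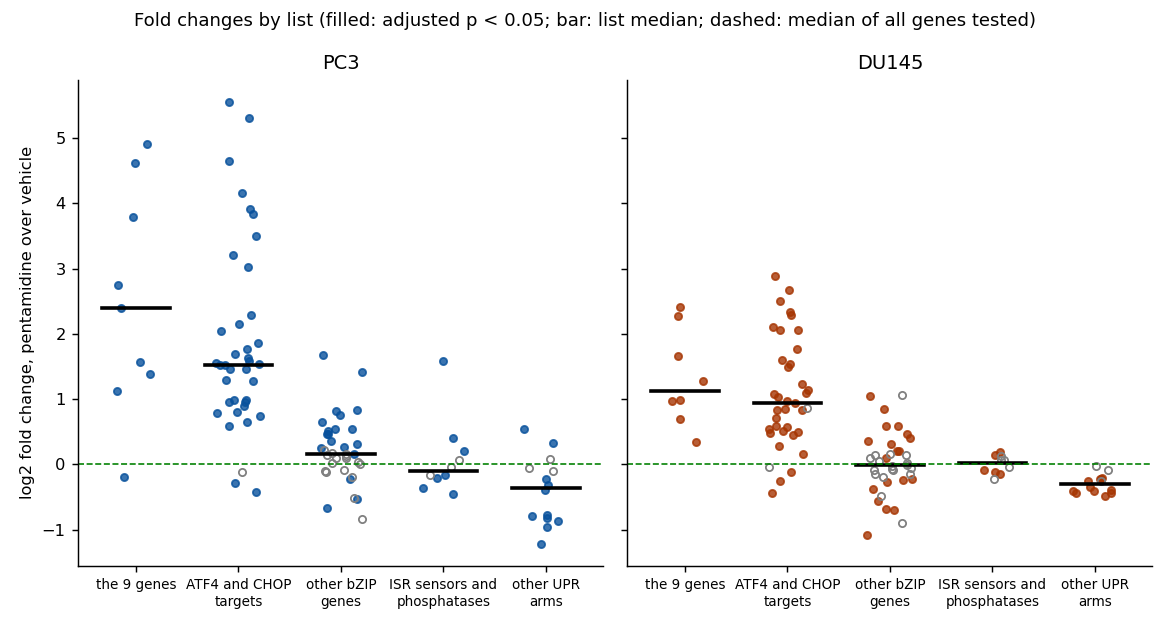
Each point is the log2 fold change (pentamidine over vehicle) of 1 tested gene, by list, in PC3 (left) and DU145 (right), filled where the adjusted p was below 0.05. Black bars are list medians and the dashed line is the median of all genes tested; the 9 genes and the targets lie mostly above the line, the sensors of the integrated stress response (ISR) around it and the other arms of the unfolded protein response (UPR) mostly below it.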

How the data were processed

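Samples were grouped by their labels, and none was left out. The authors deposited whole-number read counts per gene without normalization, aligned to GRCh38 with HISAT2 2.1.0 and tested with DESeq 1.18.1 per the submitters' processing notes. The counting program, annotation release and strand setting are not given in the sources used here. A table named for FPKM held CPM (100% of 384876 values, within 1 part in 100000) and was not used, and the authors' tables of fold changes and p-values were not used. The 33595 entries with counts gave 32077 genes after merging entries of the same name and counts, and 44 lines of stray annotation text were skipped. Coordinates are those of the deposited table, which matched GENCODE release 29 for all of the 9 genes but DDIT3.

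Genes were tested with edgeR 4.0.16 in R 4.3.3 (quasi-likelihood, TMM, filterByExpr at a minimum count of 10, Benjamini-Hochberg adjustment over all genes tested). Each line was tested with its own 6 samples, the vehicle samples of both lines with each other, and the interaction over all 12. Scripts were tested on simulated counts. The alternatives were DESeq2 1.42.0, RLE scaling, library size alone, TMM without mitochondria-encoded genes, no filter, a minimum of 10 counts in each sample, a block for the replicate number, 1 fit of all 12 samples, limma 3.58.1 on log2(CPM + 1), which understates changes of low genes, and each sample left out. The 9 genes and all lists were chosen with earlier results of these data known. From each list the 4 genes with the largest change in either line (adjusted p below 0.05, mean count of at least 10) were named, with every gene of the 10 sensors and phosphatase subunits. Some marker genes that were checked are not reported here.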

Additional observations from a re-analysis of the deposited data

Results flagged for a closer look

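The response to pentamidine differed between the lines for the following genes by the interaction term of edgeR's fit over 12 samples (adjusted p below 0.05), and each value is the PC3 response minus the DU145 response on the log2 scale. Among the 9 genes these were JDP2 (2.35), DDIT3 (1.47), ATF3 (1.39), TRIB3 (0.74), CEBPB (0.69), CEBPG (0.57) and ATF5 (-0.54). ATF5 is the gene of these whose fitted changes had opposite signs in the lines. Among the named targets the difference was 3.25 for DDIT4, 2.14 for ADM2 and 1.83 for SESN2.

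Among the named sensors and phosphatase subunits it was 1.53 for PPP1R15A, 0.22 for IMPACT (adjusted p = 0.0427) and -0.24 for EIF2AK2 (adjusted p = 0.0405). Of the other bZIP genes and the TRIB3 relatives, MAFF differed by 1.29, NFIL3 by 1.28, XBP1 by 1.21 and TRIB1 by 0.89. Of the 14 genes of the other arms of the unfolded protein response, 7 had a lower log2 fold change in PC3, 3 a higher one and 4 did not pass. The difference was -0.73 for SDF2L1, -0.61 for CALR, -0.57 for MANF and -0.48 for PDIA4, which all fell further in PC3. Groups of 3 samples were too small for a test of single outlying samples.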

How the results depend on the processing

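For the 9 genes tested in PC3 and the 8 tested in DU145 (NUPR1 was not), the direction of the pentamidine response was the same under all 15 alternatives, or under 14 where the filter at 10 counts in every sample removed the gene (JDP2 and NUPR1 in PC3, ATF3 in DU145). That filter lowered the genes called to 431 in PC3 (from 658), 154 in DU145 (from 290), 251 for the difference between the lines (from 399) and 1432 between the vehicle groups (from 2768), and limma on log2(CPM + 1) to 337, 103 and 232 for the first 3. Fewer genes enter under the filter, while the cause of the lower counts with limma was not tested. Members called fell under the filter to 1 (from 3) for the difference between the lines and to 0 (from 2) between the vehicle groups. Of all genes tested, 251 of 12110 were called for the difference under the filter (399 of 15226 in the main fit). Between the vehicle groups these were 1432 of 12341 (2768 of 14394 in the main fit). There 3 of 6 members tested under the filter had an unadjusted p below 0.05, and the share of all genes below that p is not given here. Limma also called 0 between the vehicle groups, with 6 of 8 below that p and differences of 0.90 for ATF3 and -0.97 for JDP2. The CEBPB difference between the vehicle groups ranged from -0.31 to 0.29 over the left-out samples, reversing without PC3 vehicle replicate 1 (-0.31) and without DU145 vehicle replicate 1 (-0.00083), and its difference in response was 1.09 without PC3 vehicle replicate 1. Leaving out single samples gave 654 to 741 genes called in PC3 and 293 to 319 in DU145, with 8 members called in PC3 each time and 4 to 5 in DU145, and 2 to 4 for the difference between the lines.

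Whether the replicate numbers in the labels pair the samples is not known. Deviations of same-numbered samples from their group means correlated at -0.16 to 0.05. Samples of different number were not compared, so these values cannot settle it. With the replicate number as a block, 648 genes were called in PC3, 285 in DU145, 362 for the difference and 2773 between the vehicle groups, with 8, 4, 3 and 2 members called as without it. Genes with few reads, such as NUPR1 in DU145, limit what this depth can show.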
